A study of Mus musculus with 19 samples.

Results

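Ms4a1, Cd79a, Cd79b, Pax5, Ebf1, Cd22, Blk, Bank1 and Cd72 are genes of B cell identity and of the B cell antigen receptor, and their RNA was measured in the spleens of mice in which the sex chromosomes and the gonads vary apart from each other. They were taken by symbol from a table of 27179 genes, and all 9 were found. A gene was tested when it reached 0.5 RPKM (reads per kilobase of gene, scaled to the size of the library) in at least 4 mice, which 14186 genes did. The 9 genes passed this filter in every group, and their lowest value was 22.9 RPKM (Ebf1 in XYF F9).

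Splenocytes came from mice of the FCG model, named for its core genotypes, 1 week after an intraperitoneal injection of heat-killed Streptococcus pneumoniae (HKSP, the nonencapsulated strain R36A), and their polyadenylated RNA was sequenced. In FCG mice the testis-determining gene Sry is missing from the Y chromosome and sits as a transgene on chromosome 3, so that either type of gonad can go with either set of sex chromosomes. The groups were XXF (5 mice) and XYF (4 mice) with ovaries, and XXM (5 mice) and XYM (5 mice) with testes, all from C57BL/6J mothers and XY- Sry fathers (B6.Cg-Tg(Sry)2Ei Srydl1Rlb/ArnoJ). Every mouse was immunized and no group was left without HKSP, so the values describe immunized spleens alone, and the labels and methods give no age for the sequenced mice. Males differ from females in the transgene and the stretch of chromosome 3 that holds it as well as in the gonads, and these cannot be told apart. Bank1 lies on that chromosome. The sample titles carry running numbers at their start and at their end, and both go group by group. Those at the end (the S numbers) go in the order XXM, XYM, XXF, then XYF. Those at the start go in the order XXF, XYF, XXM, then XYM, and the XXM titles alone carry an extra word. Any order of handling behind them cannot be told apart from gonadal sex or from the sex chromosomes.

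The libraries held 11263753 reads (XYF F6) to 19962022 reads (XYM 13), and each of the 9 genes had 622 to 28296 reads in a mouse. As a check of the labels, Xist, transcribed from an inactive X chromosome, lay at 23.9 to 41.8 RPKM in XXF and at 26.8 to 44.9 RPKM in XXM mice, and at no more than 0.0524 RPKM in XYF and XYM mice. Ddx3y, a Y-linked gene, lay at 30.8 to 46.0 RPKM in XYF and at 42.8 to 60.0 RPKM in XYM mice, and at no more than 0.0534 RPKM in XXF and XXM mice. Sry had 12 to 59 reads in XXM and 29 to 119 reads in XYM mice and 0 reads in every XXF and XYF mouse, which allows up to 3 reads in each. The 19 mice fit their labels.

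A B cell senses antigen through a membrane immunoglobulin that cannot signal alone. CD79A and CD79B carry the signal into the cell, where Src-family kinases such as BLK phosphorylate their tails and adaptors such as BANK1 pass the signal on. CD22 and CD72 are surface receptors whose tails recruit phosphatases and dampen the signal, while CD20, the product of Ms4a1, is a membrane protein of mature B cells. EBF1 and PAX5 are the transcription factors that commit a progenitor to the B lineage and keep B cell genes active, and PAX5 falls when a B cell becomes a plasma cell. In the spleen, follicular and marginal zone B cells express these genes.

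In bulk splenocytes, fewer B cells and less RNA per B cell cannot be told apart. XYF F6, XYF F9 and XYM 9 stood apart from the other mice before any test. The 9 genes added up to 1323 RPKM in XYF F9 and 1585 RPKM in XYF F6, against 2526 in XYF F7 and 2634 in XYF F8, and to 2183 RPKM in XYM 9, while the largest sum was 4295 RPKM in XXM 5. Haemoglobin genes took 3.39% of the reads of XYF F6 and 2.47% of those of XYF F9, against 0.112% (XYM 16) to 2.17% (XXF F3) in the other mice, with XYM 9 at 1.08%. The methods describe lysis of red blood cells in the splenocyte suspensions before RNA was isolated. Markers of myeloid cells summed to 55272 RPKM in XYF F9 and 56525 RPKM in XYM 9, and to no more than 17465 RPKM (XYF F7) in the other mice. Calls by limma between XYF and 1 other group are also given without XYF F6 and F9 together, and the part that other cell types play in any result was not tested.

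By the median RPKM over 19 mice the order was Cd79b (Entrez 15985, 806 RPKM), Cd79a (12518, 721 RPKM), Ms4a1 (12482, 494 RPKM), Pax5 (18507, 259 RPKM), Cd72 (12517, 176 RPKM), Cd22 (12483, 146 RPKM), Bank1 (242248, 145 RPKM), Blk (12143, 116 RPKM) and Ebf1 (13591, 46.9 RPKM). Cd79b stood above 99.75% of the genes in the table and Ebf1 above 92.9% of them. Cd79a and Cd79b lay close together, with a mean log2 ratio of Cd79a to Cd79b within a mouse of -0.22 ± 0.16 in XXF (SD, n = 5), -0.16 ± 0.31 in XYF (n = 4), -0.22 ± 0.33 in XXM (n = 5) and -0.04 ± 0.27 in XYM (n = 5), not tested. Cd22 and Bank1 had nearly the same median and overlapping values. The level of Pax5 depends on the length that the RPKM values imply, 1208 bases, where the exons in the GENCODE annotation cover 8853 bases. The same holds for the levels of Ebf1 (2248 bases, where its exons cover 9756), Ms4a1 (2057, where its exons cover 6187), Bank1 (3248 and 7486) and Cd72 (1503 and 3422), while Cd79a (1327 and 1457), Cd79b (1198 and 1431), Blk (2475 and 2698) and Cd22 (4314 and 5042) are close on both counts.

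On the mouse genome build GRCm38 the genes lie on 6 chromosomes and form no cluster. Cd79a (chr7:24897497-24901858) and Cd22 (chr7:30865404-30880342) share chromosome 7, Ebf1 (chr11:44618100-45008096) and Cd79b (chr11:106311341-106314562) share chromosome 11, and Cd72 (chr4:43447724-43455102) and Pax5 (chr4:44524748-44710694) share chromosome 4. Bank1 lies at chr3:136053363-136326141, Blk at chr14:63372837-63417187 and Ms4a1 at chr19:11249679-11266149, and none is on X or Y. Genes on the opposite strand overlap 6 of them, among them the protein-coding Tesk1 beside Cd72, and reads from an overlapping gene cannot be told apart there. The strand setting of the counting is not given, and the labels and the methods name different library kits, of which the methods call theirs stranded. Cd79a, Cd79b and Blk have no such overlap.

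Because EBF1 binds the control regions of B cell genes and these 9 genes varied together over the mice (median r of pairs 0.755), the 250 bases before each start were searched on both strands for 4 motifs, none of them a PAX5 motif. RefSeq promoters of GRCm38.p6 were at hand for 6 of the 9 genes, 7 promoters in all, since Ebf1 has 2; Ms4a1, Cd79b and Blk have no entry. The EBF core CCCNNGGG was found in 2 of the 7 and in 11.8% of all 32851 promoters, the E-box CAGGTG in 3 and in 17.2%, the PU.1 motif GAGGAAGT in 1 and in 2.44%, and the octamer ATTTGCAT in 0 and in 1.6%. A match is a run of letters and no evidence of binding. The matches to the EBF core and to PU.1 are shown in 30 bases each, on the gene's own strand with the motif in capitals. Distances are counted from the transcript start of the promoter table, which for Bank1, Cd22 and Cd72 lies inside the wider gene bounds given above. These 3 matches fall within those bounds. That of Bank1 (chr3:136326069-136326098, minus strand) begins 21 bases before the start, that of Cd22 (chr7:30879058-30879087, minus strand) 48 bases before it, within an intron of a longer Cd22 transcript in the GENCODE annotation, and that of Cd72 (chr4:43454657-43454686, minus strand) 49 bases before it.
Bank1, EBF core: tgcggcctgagCCCCTGGGctgcatttccg
Cd22, EBF core: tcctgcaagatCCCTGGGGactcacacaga
Cd72, PU.1: gccaaagacctACTTCCTCttttatgactt

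The E-box matches lay in the promoters of Bank1, Cd79a and Cd22. The match of Cd22 (chr7:30879249-30879278, minus strand) begins 245 bases before the start, within an exon and untranslated region of Cd22 in the annotation. The match of Cd79a, the only promoter here of a receptor signalling chain, since Cd79b has no entry, begins 154 bases before the start at chr7:24897331-24897360 on the plus strand. That of Bank1 begins 145 bases before the start at chr3:136326194-136326223 on the minus strand.
Cd79a, E-box: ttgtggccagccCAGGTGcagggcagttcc
Bank1, E-box: taagctctaggtCACCTGagcttaaagata

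Values below are log2(RPKM + 1), differences are on that log2 scale, and adjusted p values come from limma over all 14186 tested genes. A gene is called when its adjusted p is under 0.1 and its fold change over 1.5. XX against XY mice of the same gonads asks for an effect of the sex chromosomes, males against females with the same sex chromosomes for an effect of the gonads, and the difference of the XX minus XY effects between females and males for an interaction. Each group serves in several comparisons, so these share mice.

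**Figure D1:**
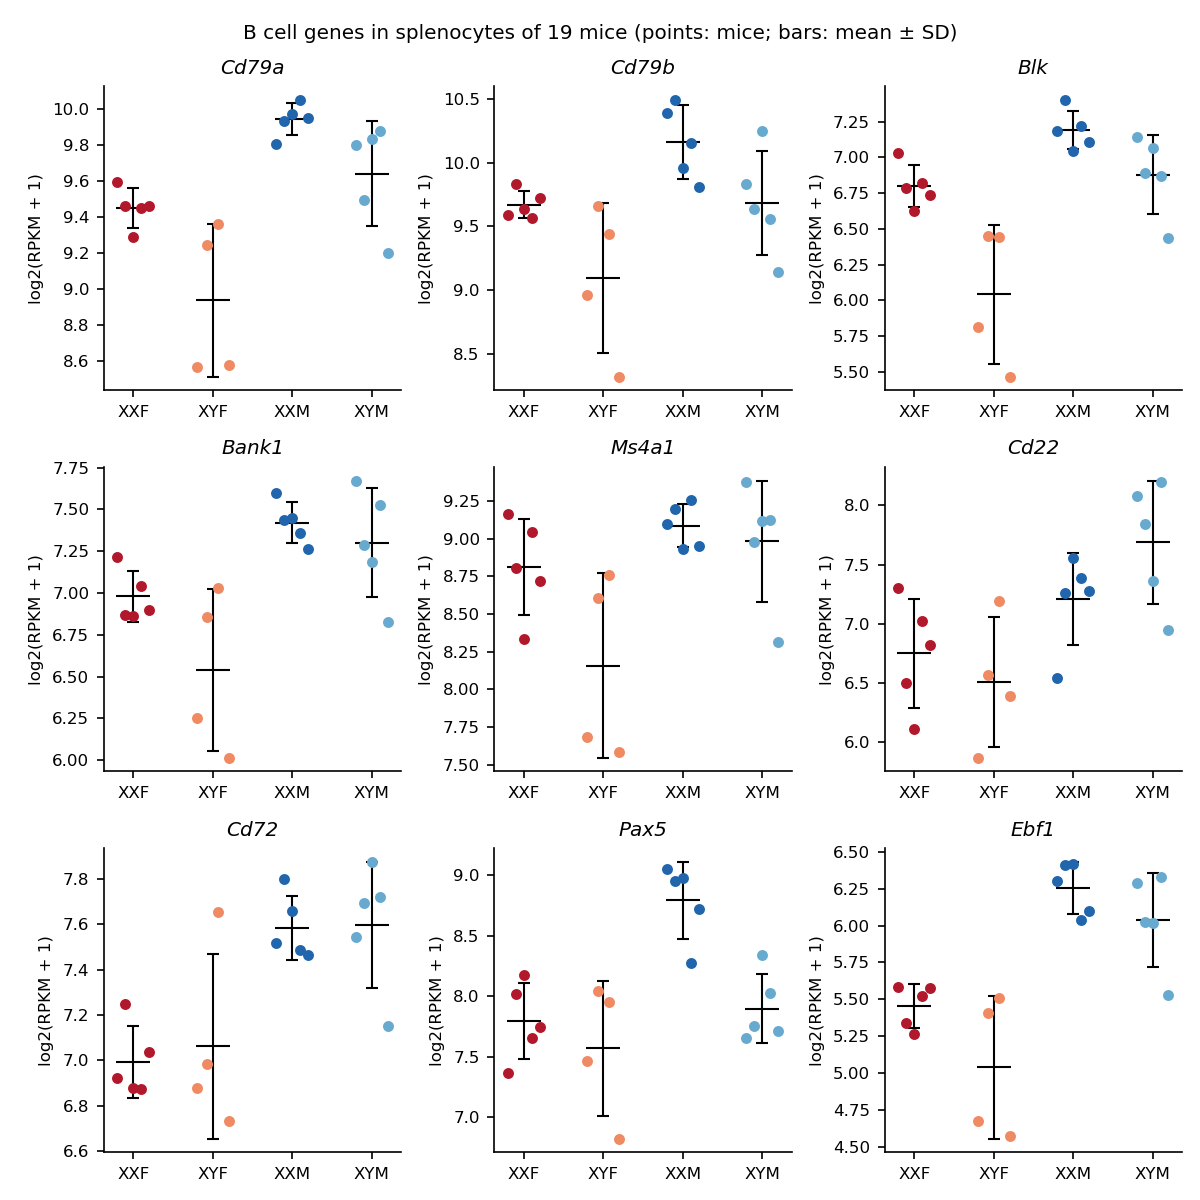
Level of each of the 9 genes as log2(RPKM + 1) in each of the 19 mice by group, with a point for each mouse and bars for the mean and SD. XXM has the highest mean for 7 genes, and XYF F9 and XYF F6 lie low for most of them.

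Cd79a and Cd79b encode the signalling chains of the receptor. Cd79a stood at 9.59, 9.46, 9.29, 9.45 and 9.46 in XXF F1, F2, F3, F4 and F5, and at 8.57, 9.25, 9.36 and 8.58 in XYF F6, F7, F8 and F9. In males it stood at 9.81, 9.93, 9.97, 10.05 and 9.95 in XXM 2, 5, 6, 7 and 8, and at 9.20, 9.80, 9.50, 9.84 and 9.88 in XYM 9, 12, 13, 15 and 16. Every XXM mouse lay above every XXF mouse, and XYF F6 and F9 lay below all the other mice. The means were 9.45 ± 0.11 in XXF (SD, n = 5), 8.94 ± 0.42 in XYF (n = 4), 9.94 ± 0.09 in XXM (n = 5) and 9.64 ± 0.29 in XYM (n = 5). Cd79a was higher in XYM than in XYF (log2 difference 0.70, 95% confidence interval 0.33 to 1.08, adjusted p = 0.0102). Between XXM and XXF the difference of 0.49 (adjusted p = 0.0955) stayed under the fold threshold, and XX minus XY gave 0.51 in females (adjusted p = 0.161) and 0.30 in males (adjusted p = 0.245), neither called. The call between XYM and XYF was lost without XYF F6 (0.58) or XYF F9 (0.58), without both of them (0.34, adjusted p = 0.208) and with limma array weights (0.57).

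Cd79b spread more widely than its partner, over 2.17 log2 units against 1.49. It stood at 9.59, 9.83, 9.64, 9.57 and 9.72 in XXF mice and at 8.96, 9.66, 9.44 and 8.33 in XYF mice, in the order of mice above. In males it stood at 10.39, 10.49, 9.96, 10.15 and 9.81 in XXM and at 9.14, 9.83, 9.64, 10.25 and 9.56 in XYM mice. XXM 2 and XXM 5 were the highest and XYF F9 the lowest, at 320.0 RPKM against 1441 RPKM in XXM 5, and XXF and XXM overlapped only in that XXM 8 lay just under XXF F2. The means were 9.67 ± 0.11 (XXF, n = 5), 9.10 ± 0.59 (XYF, n = 4), 10.16 ± 0.29 (XXM, n = 5) and 9.68 ± 0.40 (XYM, n = 5). The difference of XYM from XYF passed both thresholds narrowly (log2 difference 0.59, 95% confidence interval 0.08 to 1.10, adjusted p = 0.0755) and was lost without any 1 of XYF F6 (0.54), XYF F9 (0.33), XYM 12 (0.55), XYM 13 (0.60), XYM 15 (0.45) and XYM 16 (0.62). It was also lost with limma array weights (0.44), with median ratio rescaling (0.53), with no filter or a fit of the compared groups alone (0.59 in both), at an adjusted p under 0.05, and without XYF F6 and F9 together (0.14, adjusted p = 0.725). The other differences were not called: 0.49 for XXM minus XXF (adjusted p = 0.247), 0.57 for XXF minus XYF (adjusted p = 0.227) and 0.48 for XXM minus XYM (adjusted p = 0.191).

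Blk, the B lineage kinase of the Src family, was the gene of the 9 with the largest difference between XXF and XYF. It stood at 7.03, 6.79, 6.63, 6.82 and 6.74 in XXF F1, F2, F3, F4 and F5, and at 5.82, 6.45, 6.44 and 5.47 in XYF F6, F7, F8 and F9. Among males it stood at 7.19, 7.40, 7.05, 7.22 and 7.11 in XXM 2, 5, 6, 7 and 8, and at 6.44, 7.15, 6.89, 7.06 and 6.87 in XYM 9, 12, 13, 15 and 16. Every XXF mouse lay above every XYF mouse, and every XXM mouse above every XXF mouse, by little where XXM 6 (7.05) stood over XXF F1 (7.03). The means were 6.80 ± 0.15 (XXF, n = 5), 6.05 ± 0.49 (XYF, n = 4), 7.19 ± 0.14 (XXM, n = 5) and 6.88 ± 0.27 (XYM, n = 5). Blk was 1.69-fold higher in XXF than in XYF (log2 difference 0.76, 95% confidence interval 0.38 to 1.13, adjusted p = 0.0524). That call was lost without any 1 of XXF F1 (0.70), XXF F4 (0.75), XXF F5 (0.77), XYF F6 (0.68) and XYF F9 (0.56) and in a fit of the compared groups alone, and without XYF F6 and F9 together the difference was 0.35 (adjusted p = 0.962). Between XXM and XYM it was 0.31 (adjusted p = 0.233), and the interaction (the effect in females minus that in males), 0.44 (95% confidence interval -0.07 to 0.96, adjusted p = 0.296), was not called. Blk was also higher in XYM than in XYF (log2 difference 0.84, 95% confidence interval 0.46 to 1.21, adjusted p = 0.00484), in all alternatives with all mice and with each mouse left out but not without XYF F6 and F9 together. XXM minus XXF gave 0.39 and no call (adjusted p = 0.197).

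Bank1, the adaptor with ankyrin repeats that links the receptor to calcium release, ranged from 6.86 to 7.22 in XXF, 6.02 to 7.03 in XYF, 7.26 to 7.60 in XXM and 6.83 to 7.67 in XYM mice. XYF F9 (63.7 RPKM) and XYF F6 (75.1 RPKM) were the lowest mice and XYM 12 (203 RPKM) the highest, and every XXM mouse lay above every XXF mouse. The means were 6.98 ± 0.15 (XXF, n = 5), 6.54 ± 0.48 (XYF, n = 4), 7.42 ± 0.12 (XXM, n = 5) and 7.30 ± 0.33 (XYM, n = 5). Bank1 was higher in XYM than in XYF (log2 difference 0.76, 95% confidence interval 0.37 to 1.16, adjusted p = 0.00882), though not without XYF F6 and F9 together (adjusted p = 0.188), and its 0.44 between XXM and XXF was not called (adjusted p = 0.163). The XX minus XY difference was 0.44 in females (adjusted p = 0.227) and 0.12 in males (adjusted p = 0.671), where it turned to -0.01 when the libraries were rescaled without immunoglobulin and haemoglobin genes.

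Ms4a1, the gene of CD20, ranged from 8.34 to 9.16 in XXF, 7.59 to 8.76 in XYF, 8.93 to 9.26 in XXM and 8.31 to 9.38 in XYM mice. XYF F9 (191 RPKM) and XYF F6 (204 RPKM) were the lowest and XYM 12 (664 RPKM) the highest, XYM 9 was the lowest male, and all 4 groups overlapped in part except that XXM lay wholly above XYF. The means were 8.81 ± 0.32 (XXF, n = 5), 8.16 ± 0.61 (XYF, n = 4), 9.09 ± 0.14 (XXM, n = 5) and 8.98 ± 0.40 (XYM, n = 5). Ms4a1 was higher in XYM than in XYF (log2 difference 0.82, 95% confidence interval 0.30 to 1.35, adjusted p = 0.0222), in all alternatives with all mice and with each mouse left out, but not without XYF F6 and F9 together (0.30, adjusted p = 0.412). It was the least different of the 9 genes between XXM and XXF (0.27, adjusted p = 0.581). XX minus XY gave 0.65 in females (adjusted p = 0.187), over the fold threshold without passing the test. In males it gave 0.10 (adjusted p = 0.789), which turned to -0.01 with quantile normalization, to -0.02 with rescaling without immunoglobulin and haemoglobin genes, and to -0.06 without XYM 9.

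Cd22 and Cd72 encode the inhibitory receptors, and both had their highest mean in XYM. Cd22 stood at 7.30, 6.50, 6.11, 7.02 and 6.82 in XXF F1, F2, F3, F4 and F5, and at 5.87, 6.57, 7.20 and 6.39 in XYF F6, F7, F8 and F9. In males it stood at 6.55, 7.26, 7.56, 7.39 and 7.28 in XXM 2, 5, 6, 7 and 8, and at 6.95, 8.08, 7.85, 7.36 and 8.20 in XYM 9, 12, 13, 15 and 16. It had the widest range of the 9 genes, 2.33 log2 units, from 57.5 RPKM in XYF F6 to 293 RPKM in XYM 16, and all 4 groups overlapped. XXM 2, among the highest mice for Cd79b and Pax5, was the lowest male for Cd22. The means were 6.75 ± 0.46 (XXF, n = 5), 6.51 ± 0.55 (XYF, n = 4), 7.21 ± 0.39 (XXM, n = 5) and 7.69 ± 0.52 (XYM, n = 5). Cd22 was 2.27-fold higher in XYM than in XYF (log2 difference 1.18, 95% confidence interval 0.56 to 1.81, adjusted p = 0.00999), the largest of the 9 differences there, and stayed called in all alternatives with all mice and with each mouse left out, but not without XYF F6 and F9 together (0.81, adjusted p = 0.146). Its other differences were not called: 0.46 for XXM minus XXF (adjusted p = 0.406), 0.25 for XXF minus XYF (adjusted p = 0.663) and -0.48 for XXM minus XYM (95% confidence interval -1.07 to 0.11, adjusted p = 0.266). The difference between the XX minus XY effects in females and in males was 0.72 (95% confidence interval -0.13 to 1.58, adjusted p = 0.303).

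Cd72 stood at 6.92, 7.25, 6.88, 6.87 and 7.04 in XXF F1, F2, F3, F4 and F5, and at 6.88, 6.98, 7.65 and 6.73 in XYF F6, F7, F8 and F9. Among males it stood at 7.52, 7.80, 7.66, 7.49 and 7.47 in XXM 2, 5, 6, 7 and 8, and at 7.15, 7.55, 7.69, 7.88 and 7.72 in XYM 9, 12, 13, 15 and 16. Every XXM mouse lay above every XXF mouse, and XYF F8 was the 1 female above the lowest XXM mouse. Cd72 had the narrowest range of the 9 genes (1.14 log2 units) and was the 1 gene with its lowest mean in XXF, not XYF. The means were 6.99 ± 0.16 (XXF, n = 5), 7.06 ± 0.41 (XYF, n = 4), 7.59 ± 0.14 (XXM, n = 5) and 7.60 ± 0.28 (XYM, n = 5). Cd72 was 1.51-fold higher in XXM than in XXF (log2 difference 0.59, 95% confidence interval 0.26 to 0.92, adjusted p = 0.0292), just over the fold threshold. The call was lost without XXF F1 (0.58), XXF F3 (0.57), XXF F4 (0.56), XXM 5 (0.54) or XXM 6 (0.58). XYM minus XYF gave 0.53 (adjusted p = 0.0259), under the fold threshold, but over it at 0.73 with quantile normalization, with rescaling without immunoglobulin and haemoglobin genes and without XYF F8, and at 0.65 without XYM 9. Between XX and XY mice Cd72 differed by -0.07 in females (adjusted p = 0.837) and by -0.01 in males (adjusted p = 0.969).

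Pax5 and Ebf1 are the lineage transcription factors, and both were higher in XXM than in XXF. Pax5 stood at 7.37, 8.02, 8.18, 7.65 and 7.75 in XXF F1, F2, F3, F4 and F5, and at 7.46, 8.04, 7.95 and 6.82 in XYF F6, F7, F8 and F9. In males it stood at 9.05, 8.95, 8.98, 8.27 and 8.72 in XXM 2, 5, 6, 7 and 8, and at 7.71, 7.65, 7.75, 8.34 and 8.02 in XYM 9, 12, 13, 15 and 16. XXM 2, 5, 6 and 8 lay above all the other mice, every XXM mouse lay above every XXF mouse, and XYM 15 (8.34) was the 1 XYM mouse above the lowest XXM mouse, XXM 7. The means were 7.79 ± 0.32 (XXF, n = 5), 7.57 ± 0.56 (XYF, n = 4), 8.79 ± 0.32 (XXM, n = 5) and 7.90 ± 0.29 (XYM, n = 5). Pax5 was 2.0-fold higher in XXM than in XXF (log2 difference 1.0, 95% confidence interval 0.53 to 1.47, adjusted p = 0.01), and this held in every alternative run and with each mouse left out. It was also 1.86-fold higher in XXM than in XYM (log2 difference 0.90, 95% confidence interval 0.43 to 1.37, adjusted p = 0.0602), but that call was lost without any 1 of XXM 2 (0.83), XXM 5 (0.86), XXM 6 (0.85), XYM 12 (0.84), XYM 13 (0.86) and XYM 16 (0.93), where the adjusted p over all left-out mice ran from 0.0253 to 0.16, and at an adjusted p under 0.05.

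Between XYM and XYF, Pax5 differed by 0.33 (adjusted p = 0.3), the smallest of the 9 differences in the comparison in which most of the others were called. Between XXF and XYF it differed by 0.22 (adjusted p = 0.612), or by -0.02 without XYF F9. The test of the difference between the XX minus XY effects gave -0.67 (95% confidence interval -1.36 to 0.01, adjusted p = 0.241), so Pax5 is not shown to respond to the sex chromosomes differently in males and females. With limma array weights that difference was -0.89 and was called, with an adjusted p between 0.0434 and 0.321 over the alternatives with all mice. It was -0.88 (adjusted p = 0.104) without XYF F9 and XYM 9 together and -1.10 (adjusted p = 0.406) without XYF F6 and F9 together, not called in either.

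Ebf1 stood at 5.58, 5.34, 5.26, 5.52 and 5.58 in XXF F1, F2, F3, F4 and F5, and at 4.68, 5.41, 5.51 and 4.58 in XYF F6, F7, F8 and F9. Among males it stood at 6.30, 6.41, 6.42, 6.04 and 6.10 in XXM 2, 5, 6, 7 and 8, and at 5.53, 6.29, 6.02, 6.02 and 6.33 in XYM 9, 12, 13, 15 and 16. Males lay above females for both pairs of groups, with XYM 9 (5.53) just over XYF F8 (5.51), and Ebf1 was the 1 gene of the 9 whose XYM and XYF mice did not overlap. The means were 5.46 ± 0.15 (XXF, n = 5), 5.04 ± 0.48 (XYF, n = 4), 6.25 ± 0.18 (XXM, n = 5) and 6.04 ± 0.32 (XYM, n = 5). Ebf1 was 1.74-fold higher in XXM than in XXF (log2 difference 0.80, 95% confidence interval 0.42 to 1.17, adjusted p = 0.0102) and 1.99-fold higher in XYM than in XYF (log2 difference 1.0, 95% confidence interval 0.60 to 1.39, adjusted p = 0.00304). Both calls held in every alternative with all mice and with each mouse left out, and the second was lost without XYF F6 and F9 together (0.58, under the fold threshold). XX minus XY gave 0.41 in females (adjusted p = 0.253) and 0.22 in males (adjusted p = 0.422), neither called.

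**Figure D2:**
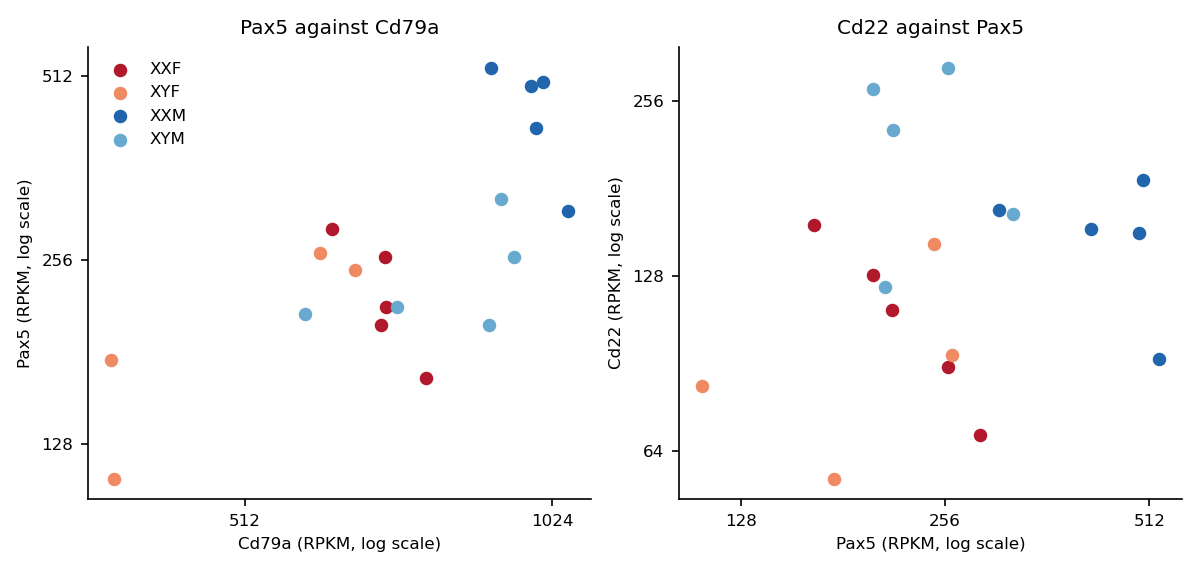
RPKM of Pax5 against Cd79a and of Cd22 against Pax5 in each of the 19 mice on log axes, 1 point a mouse, coloured by group. Pax5 and Cd79a rise together (r = 0.723 on the log2 scale), while Cd22 and Pax5 do not (r = 0.169). XXM mice lie at high Pax5 and XYM mice at high Cd22.

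Read by comparison, XXF against XYF had 1 called gene of 9, Blk, against 0.670% of all tested genes called higher and 0.712% called lower. The median of the 9 differences was 0.44, with all but Cd72 positive, beside 0.06 over all tested genes. Blk was also the 1 gene whose 2 groups did not overlap with XXF higher, as held for 3.56% of tested genes. The count was 4 without XYF F7 or without XYF F8, and 0 without XXF F1, XXF F4, XXF F5, XYF F6 or XYF F9, so it hung on single mice of both groups. Calls over all tested genes moved the same way, from 196 to 850 without XYF F7 and 374 without XYF F8, and to between 56 and 119 without each of the other 5. Without XYF F6 and F9 together, an alternative chosen after seeing the data that leaves 2 XYF mice, no gene was called, Blk was at 0.35 and Pax5, Ebf1, Cd22 and Cd72 turned or stayed negative (-0.20, -0.001, -0.13 and -0.33).

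XXM against XYM also had 1 called gene of 9, Pax5, against 1.13% of all tested genes called higher and 1.83% called lower. The median difference was 0.22, beside 0.01 over all tested genes, and none of the 9 genes had groups that did not overlap, against 2.27% of tested genes with XXM higher. Cd22 and Cd72 were the genes with negative differences. Without XYM 15 the count was 2, Pax5 and Cd79b (0.62), and without XXM 2, XXM 5, XXM 6, XYM 12, XYM 13 or XYM 16 it was 0. Calls over all tested genes moved the same way, from 420 to 1213 without XYM 15 and to between 51 and 97 without each of the other 6. Averaged over both gonadal sexes, limma called 0 of 9 genes between XX and XY, against 0.515% of tested genes called higher and 1.21% called lower. Of the 9, 7 had an unadjusted p under 0.05, and limma-voom on reads recovered from the values also called 0. By adjusted p alone 4 were higher in XX mice, against 4.31% of tested genes: Pax5 (0.56, adjusted p = 0.0681), Blk (0.53, adjusted p = 0.0266), Cd79b (0.52, adjusted p = 0.0927) and Cd79a (0.41, adjusted p = 0.0777). Those differences were all under the fold threshold, and 1 to 3 genes passed it without XXF F1 (1), XYF F7 (3), XYF F8 (2), XXM 7 (1) or XYM 15 (2). None of the 4 passed the adjusted p without XYF F6 and F9 together (Pax5 0.35, adjusted p = 0.392; Blk 0.33, adjusted p = 0.162; Cd79b 0.30, adjusted p = 0.473; Cd79a 0.22, adjusted p = 0.456).

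XXM against XXF had 3 called genes of 9, Pax5, Ebf1 and Cd72, all higher in XXM, against 1.30% of all tested genes called higher and 2.91% called lower. The median difference was 0.49, all 9 were positive, and the median over all tested genes was -0.01. For 6 genes every XXM mouse lay above every XXF mouse (Cd79a, Pax5, Ebf1, Blk, Bank1 and Cd72), against 4.56% of tested genes. The count was 2 or 3 with each mouse left out.

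XYM against XYF had 7 called genes of 9, all higher in XYM and all but Cd72 and Pax5, against 7.63% of all tested genes called higher and 8.13% called lower. With rescaling without immunoglobulin and haemoglobin genes 8 of 9 were called, against 15.3% called higher and 4.84% called lower. Without XYF F6 and F9 together the shares of tested genes were 2.91% and 5.24%. The median difference was 0.76 and the median over all tested genes 0.02. The groups did not overlap for Ebf1 alone, against 9.93% of tested genes with XYM higher, since XYF F7, XYF F8 or both lay above the lowest XYM mouse for the other 8. With each mouse left out the count ran from 5 (without XYF F6 or XYF F9) to 8 (without XYF F8 or XYM 9). Without XYF F6 and F9 together no gene was called: Ebf1 (0.58, adjusted p = 0.0667) and Blk (0.43, adjusted p = 0.097) passed the adjusted p but not the fold threshold, Cd22 passed the fold threshold but not the adjusted p, and Pax5 turned to -0.10. Without XYF F9 and XYM 9 together 6 were called.

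Averaged over XX and XY, males against females had 6 called genes of 9, Ebf1, Cd22, Pax5, Blk, Bank1 and Cd79a, against 1.96% of all tested genes called higher and 5.36% called lower. Ebf1 had the largest of these differences (log2 difference 0.90, 95% confidence interval 0.62 to 1.17, adjusted p = 0.000154), and Cd79b (0.54), Ms4a1 (0.55) and Cd72 (0.56) lay just under the fold threshold. All 9 passed the adjusted p alone, as did 20.5% of tested genes with males higher. The count was 3 without XYF F6 or XYM 12, 2 without XYF F9, 2 without XYF F6 and F9 together and 2 with limma array weights. It was 9 with quantile normalization, with rescaling without immunoglobulin and haemoglobin genes, without XYF F8 and without XYM 9. Ebf1 stayed called in each of these. For the difference of the XX minus XY effects between females and males, limma called 0 of 9 genes, against 0.0846% of tested genes. Of the 9, 0 had an unadjusted p under 0.05, and limma-voom called 0 as well. With limma array weights 1 of the 9 was called, Pax5, while the calls over all tested genes went from 12 to 1910. Without XYM 9 those calls went to 1694, with 0 of the 9 among them.

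**Figure D3:**
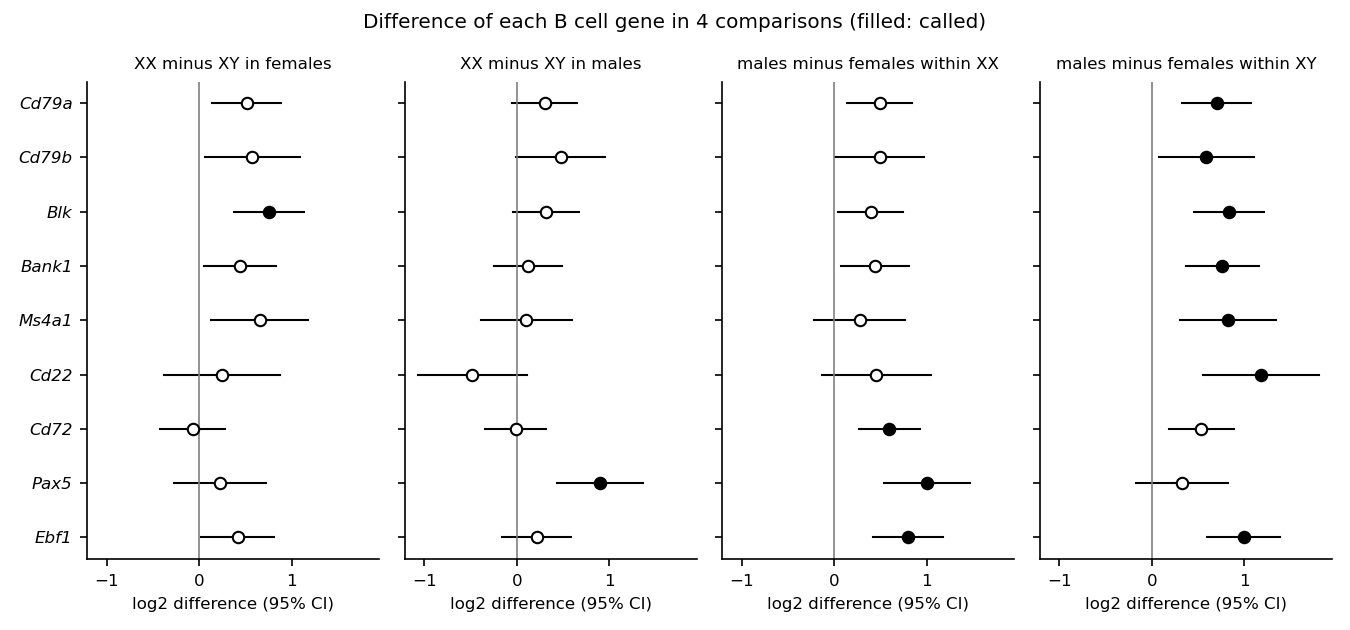
Log2 difference of each of the 9 genes with its 95% confidence interval in 4 comparisons, XX minus XY in females and in males and males minus females within XX and within XY, with filled points for called genes. Between XYM and XYF 7 of 9 are called, between XXM and XXF 3, and between XX and XY 1 in each gonadal sex.

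Of all pairs of the 9 genes, Pax5 and Cd22 moved least together. Over the 36 pairs of the 9 genes, Pearson's r of the log2 values over 19 mice ran from 0.169 (Pax5 and Cd22) to 0.958 (Ebf1 and Bank1), with a median of 0.755. Centred on each group, it ran from -0.145 to 0.936 with a median of 0.677. The log2 ratio of Cd22 to Pax5 was -1.05 ± 0.78 in XXF (SD, n = 5), -1.07 ± 0.57 in XYF (n = 4), -1.59 ± 0.60 in XXM (n = 5) and -0.21 ± 0.62 in XYM (n = 5), and it ran from -2.52 to -0.89 in XXM and from -0.98 to 0.42 in XYM mice, so that these groups overlapped slightly. Pax5 against Ebf1 gave mean log2 ratios of 2.36 ± 0.46 in XXF, 2.57 ± 0.23 in XYF, 2.56 ± 0.19 in XXM and 1.88 ± 0.39 in XYM. Ratios within a mouse do not depend on the scaling between libraries, and these were not tested.

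The genes outside the 9 whose level followed their mean most closely over the 19 mice were Fcrl1 (r = 0.989), Fcrla (0.979), Srpk3 (0.977), Blnk (0.975), H2-DMb2 (0.971), Tnfrsf13c (0.97), Rnase6 (0.969), H2-Ob (0.968), Snx2 (0.968) and Cxxc5 (0.963). Fcrl1 and Fcrla are Fc receptor-like genes of B cells, Blnk is the adaptor next to the receptor, Tnfrsf13c encodes the receptor for the survival factor BAFF, and H2-DMb2 and H2-Ob encode chains of H2-DM, which helps to load peptides on MHC class II, and of H2-O, which restrains H2-DM. With each value centred on its group, Fcrl1 (0.983) again led, followed by H2-DMb2 (0.969), Rnase6 (0.948), Tnfrsf13c (0.946), Srpk3 (0.945), Blnk (0.943), Phf11b (0.94), Csnk1g3 (0.939), H2-Eb2 (0.938) and Fcrla (0.938). At the other end stood Mpp1 (-0.931), Mettl27 (-0.93), Prnp (-0.916), Fam241a (-0.915) and Isg20 (-0.913) over all mice, and Apold1 (-0.933), Mgat4b (-0.92), Rell1 (-0.919), Mpp1 (-0.917) and Tuba4a (-0.909) centred on groups. The mice share group and cell mixture, so these are descriptions.

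Another 45 genes of the B lineage in 5 lists, all tested, were read in the same way. Between XYM and XYF 23 of 45 were called higher in XYM and 1 lower, with a median difference of 0.64, against 7.63% of all tested genes called higher and 8.13% lower. Between XXM and XXF 6 were called higher and 1 lower, with a median of 0.34, against 1.30% and 2.91% of all tested genes. Between XXF and XYF 1 was higher and 0 lower (median 0.26), and between XXM and XYM limma called 0 (median 0.03), with 9 at an unadjusted p under 0.05 and 0 called by limma-voom. Over all tested genes 0.670% were called higher and 0.712% lower between XXF and XYF, and 1.13% and 1.83% between XXM and XYM. Averaged over the sex chromosomes 15 were higher in males and 1 lower, averaged over the gonads 1 was higher in XX mice (Cr2, lost in several alternatives, median ratio rescaling among them, and without any 1 of 8 mice), and the interaction had 0 (9 at an unadjusted p under 0.05, and 0 by limma-voom). Of all tested genes 1.96% were higher and 5.36% lower in males, 0.515% and 1.21% in XX mice, and 0.0846% were called for the interaction. Without XYF F6 and F9 together 10 of the 23 were still called (Cr2, Syk, Btk, Plcg2, Malt1, Fcgr2b, Siglecg, Spib, Bach2 and Cd55), and Cd5 alone was lower, against 2.91% of all tested genes called higher and 5.24% lower. With each mouse left out the count ran from 19 (without XYF F6) to 26 (without XYF F8 or XYM 9).

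Cr2, the complement receptor of follicular dendritic cells and of marginal zone and follicular B cells, was higher in XYM than in XYF (0.91, adjusted p = 0.00146). It was also the 1 gene of the 45 higher in XXF than in XYF (log2 difference 0.79, 95% confidence interval 0.48 to 1.10, adjusted p = 0.013), which held with each mouse left out but not in a fit of the compared groups alone or without XYF F6 and F9 together (0.52, adjusted p = 0.452). Cd81, listed beside it, was not called there or between XYM and XYF. Of 14 kinases and adaptors of receptor signalling, 7 were higher in XYM than in XYF, with Malt1 (1.22, adjusted p = 0.00177), Syk (1.12, adjusted p = 0.00514), Btk (0.72, adjusted p = 0.000287) and Blnk (0.77, adjusted p = 0.00387) ahead by adjusted p and Pik3ap1, Plcg2 and Vav2 also called. Between XXM and XXF 2 of them were higher, Btk (0.69, adjusted p = 4.84e-05) and Blnk (0.67, adjusted p = 0.00895). Btk, an X-linked kinase that acts after SYK, had differences of 0.16 for XXF minus XYF (adjusted p = 0.352) and 0.13 for XXM minus XYM (adjusted p = 0.327), not called.

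Of 9 inhibitory receptors and phosphatases beside Cd22 and Cd72, 4 were higher in XYM than in XYF: Siglecg (1.02, adjusted p = 0.0042), Fcgr2b (0.77, adjusted p = 0.00355), Inpp5d (0.64, adjusted p = 0.0069) and Fcrl1 (0.72, adjusted p = 0.0138). Siglecg (0.83, adjusted p = 0.0153) and Fcgr2b (0.77, adjusted p = 0.00302) were higher in XXM than in XXF too, while Cd5, which T cells express more than B cells, was lower (-1.25, adjusted p = 0.000347). Of 12 transcription factors, 7 were higher in XYM than in XYF, with Spib (1.0, adjusted p = 0.00267), Bach2 (1.0, adjusted p = 0.0047), Bcl11a (0.67, adjusted p = 0.00582) and Pou2af1 (0.71, adjusted p = 0.006) ahead by adjusted p and Ikzf3, Irf8 and Ets1 also called. Between XXM and XXF 2 were higher, Bcl11a (0.81, adjusted p = 0.00153) and Pou2f2 (0.68, adjusted p = 0.0463). Of 8 other surface genes of mature B cells, 4 were higher in XYM than in XYF, Cd55 (0.96, adjusted p = 0.00207), Fcrla (0.77, adjusted p = 0.00485), Fcer2a (1.13, adjusted p = 0.00688) and Cxcr5 (0.99, adjusted p = 0.0125). Cd24a, which red cell precursors also express, was lower (-0.73, adjusted p = 0.0831), but not with quantile normalization, without XYF F6 or without XYF F6 and F9 together (-0.14, adjusted p = 0.799). Limma and limma-voom called no gene of that list between XXM and XXF, where 3 had an unadjusted p under 0.05.

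**Figure D4:**
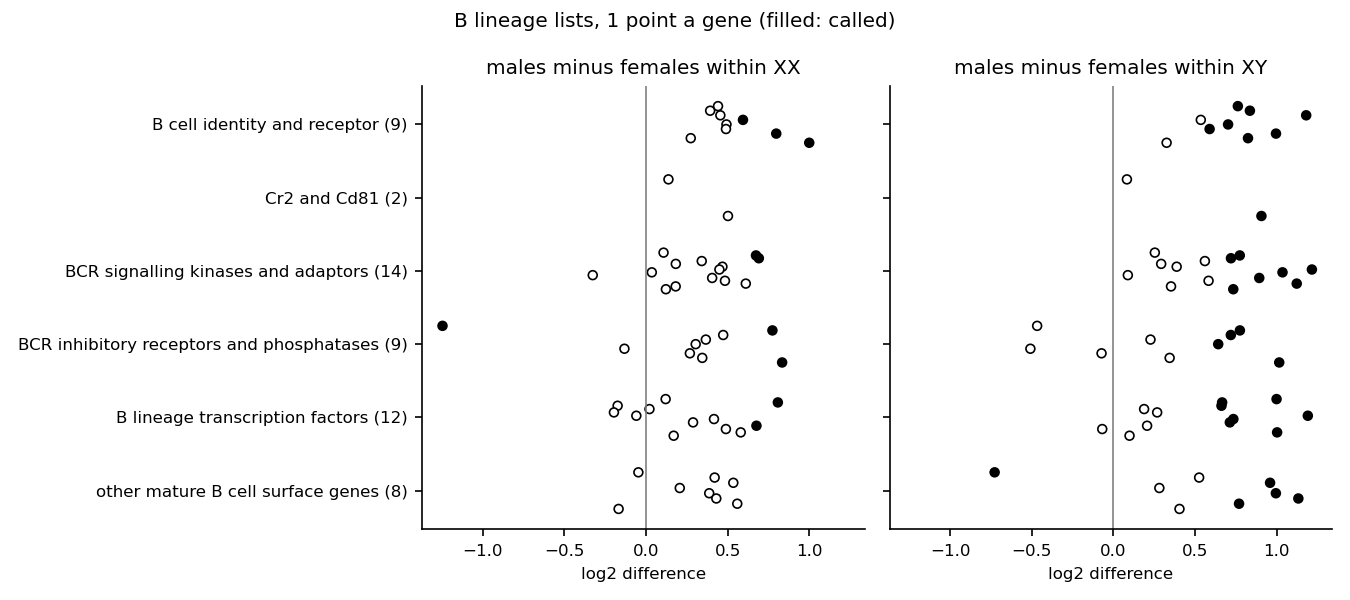
Log2 difference of each gene of the 9 and of 5 other B lineage lists, 1 point a gene, for males minus females within XX and within XY, filled where called. Most genes lie right of 0 in both, with 23 of 45 genes of the other lists called higher within XY and 6 within XX.

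Genes of the stages before and after the mature B cell gave few calls. Of 8 genes of B cell precursors 6 were tested, Vpreb2 and Rag2 falling under the filter, and limma and limma-voom called 0 of them in every comparison, with at most 2 at an unadjusted p under 0.05. Their sum ran from 40.6 RPKM to 110.1 RPKM, most of it from Vpreb3, which mature B cells express as well. Of 7 plasma cell markers, led by Jchain, Tnfrsf17 was lower in XXF than in XYF (-0.92, adjusted p = 0.06, not called without XXF F1) and in XYM than in XYF (-0.82, adjusted p = 0.0139), and Irf4, which activated B cells also express, was higher in XYM than in XYF (1.03, adjusted p = 0.00275). Without XYF F6 and F9 together Irf4 (0.76, adjusted p = 0.0574) and Tnfrsf17 (-0.81, adjusted p = 0.0941) were still called between XYM and XYF. Tnfrsf17 was not called there between XXF and XYF (-0.90, adjusted p = 0.558). In the order of mice above, the plasma cell sum was 767, 1514, 1527, 697 and 965 RPKM in XXF and 1804, 1520, 1859 and 1331 RPKM in XYF mice. It was 1409, 1330, 986, 1302 and 1236 RPKM in XXM and 1575, 1059, 1507, 1682 and 1065 RPKM in XYM mice, with every marker of the list read in every mouse.

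Because RPKM are shares of a library, the markers of the other cells of the spleen stand beside the B cell values. The T cell, NK cell, erythroid, myeloid and proliferation lists had reads for all of their genes in the table in every mouse, and the part of any list in the B cell differences was not tested.

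T cell markers were lower in males: 9 of 10 between XXM and XXF and 8 of 10 between XYM and XYF. Cd3d, Cd3e, Cd3g, Cd247, Cd8a, Cd8b1, Lck and Thy1 were called in both and Cd4 within XX. Cd8b1 had the largest difference in both (-2.23, adjusted p = 1.94e-05 within XX and -1.16, adjusted p = 0.00672 within XY). Rescaling without immunoglobulin and haemoglobin genes brought the 8 to 5, as did leaving out XYF F7. All 8 were called without XYF F6 and F9 together. Their sum was 1371, 1881, 1661, 1399 and 1664 RPKM in XXF and 1285, 1684, 1288 and 672 RPKM in XYF mice. In males it was 752, 812, 772, 625 and 622 RPKM in XXM and 483, 781, 696, 988 and 859 RPKM in XYM mice, with Cd2 the most abundant gene. Every XXM mouse lay under every XXF mouse, the reverse of Pax5, Ebf1 and Cd79a. Between XXM and XYM Cd8a (-0.77, adjusted p = 0.0621), Cd4 (-0.69, adjusted p = 0.0842) and Cd8b1 (-0.83, adjusted p = 0.0863) were lower in XXM, and Thy1 was higher in XXF than in XYF (0.69, adjusted p = 0.0896), calls that were all lost without XXM 2 or, for Thy1, without XXF F1 and without XYF F6 and F9 together (0.41, adjusted p = 0.96).

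NK cell markers were higher in XX mice: 6 of 7 were higher in XXF than in XYF (Gzma, Klra8, Klrb1c, Ncr1, Prf1 and Klre1), with Klre1 (1.41, adjusted p = 0.00347) and Klrb1c (1.46, adjusted p = 0.0115) at the smallest adjusted p, and 4 of 7 were higher in XXM than in XYM, with Klra8 (1.31, adjusted p = 0.0326) first. Their sum was 528, 619.6, 589.7, 680.0 and 662 RPKM in XXF and 260.3, 382, 268 and 148 RPKM in XYF mice. It was 529, 439.9, 493, 486 and 429.5 RPKM in XXM and 126, 274, 270.1, 412 and 218 RPKM in XYM mice, with Gzma the most abundant gene. With each mouse left out, 3 (without XXF F5, XYF F6 or XYF F9) to 7 (without XYF F7) were called between XXF and XYF and 1 (without XXM 2, XYM 13 or XYM 16) to 5 (without XYF F9 or XYM 15) between XXM and XYM, and without XYF F6 and F9 together 0 were called between XXF and XYF. The 6 differences were then 0.77 (Prf1) to 1.27 (Gzma), still over the fold threshold, with adjusted p from 0.166 to 0.836. Between XXM and XXF Klra8 was higher (0.89, adjusted p = 0.0586, not called without XXF F1) and Nkg7 lower (-0.67, adjusted p = 0.0338). Between XYM and XYF Klra8 was higher (0.85, adjusted p = 0.0359), but not without XYF F6 and F9 together (0.43, adjusted p = 0.37). In that fit Nkg7 alone was called, lower in XYM (-0.64, adjusted p = 0.0822).

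Erythroid markers were lower in XYM than in XYF for 6 of the 6 genes in the table (Hbb-bt and Ahsp are not in it), with Hba-a1 ahead of Hba-a2, Hbb-bs, Klf1, Alas2 and Slc4a1 (-3.22, adjusted p = 0.00177), and for 4 of 6 without XYF F6 and F9 together. Their sum was 12656, 19510, 28522, 22634 and 16151 RPKM in XXF and 47453, 20037, 15546 and 35849 RPKM in XYF mice. It was 12281, 9671, 7492, 7242 and 14301 RPKM in XXM and 14372, 2279, 6769, 5005 and 1560 RPKM in XYM mice, with Hbb-bs the most abundant gene. XYF F6 and F9, the mice lowest in the 9 B cell genes, were the highest here, and XYM 9 was the highest of its group. Between XXM and XXF limma and limma-voom called no erythroid marker, with 1 at an unadjusted p under 0.05, while Hba-a1 (1.55, adjusted p = 0.094) and Hba-a2 (1.52, adjusted p = 0.0808) were higher in XXM than in XYM but not with rescaling without immunoglobulin and haemoglobin genes.

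Myeloid markers gave 1 call of 10 between XYM and XYF, Cd14, lower in XYM (-1.20, adjusted p = 0.0066) and still so without XYF F6 and F9 together (-1.20, adjusted p = 0.0596), and 1 between XXM and XYM, Ly6c2, lower in XXM (-0.79, adjusted p = 0.0946) but not without XXF F2. Their sum was 5802, 4552, 5942, 6459 and 5489 RPKM in XXF and 13153, 17465, 8377 and 55272 RPKM in XYF mice. It was 7027, 6468, 7838, 5745 and 5231 RPKM in XXM and 56525, 3787, 9820, 4590 and 4523 RPKM in XYM mice, with S100a9 the most abundant gene. Proliferation genes were lower in XYM than in XYF for 4 of 7, Pcna (-0.60, adjusted p = 0.0134), Birc5, Cdk1 and Ccnb1, for 1 without XYF F6, for 7 without XYF F7 or XYM 9 and for 0 without XYF F6 and F9 together. Their sum was 507, 194, 324 and 543 RPKM in XYF and 430.3, 158, 207, 170.4 and 168 RPKM in XYM mice, against 154 to 244 RPKM in XXF and XXM mice, with Pcna the most abundant gene. The mice lowest in B cell genes within their group, XYF F6, XYF F9 and XYM 9, were the highest in proliferation genes.

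Of 7 stromal and endothelial markers 2 were tested and limma called 0 in every comparison, with at most 1 at an unadjusted p under 0.05, while limma-voom called 1 between XYM and XYF and 1 between males and females over both. Pecam1 was the most abundant at 45.6 to 80.8 RPKM and Ccl21a without a read in any mouse, and 1 or 2 of the 7 genes had no read in a given mouse. Of 6 pancreas acinar markers 3 were tested, with 0 called by limma or limma-voom and 0 at an unadjusted p under 0.05 in any comparison. The sum over the 6 genes reached 3.851 RPKM at most, and up to 5 of the 6 genes had no read in a mouse. Prss2, the gene named as most abundant for this list, was not so in every mouse, at 0.3996 of 2.907 RPKM in XXM 2.

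**Figure D5:**
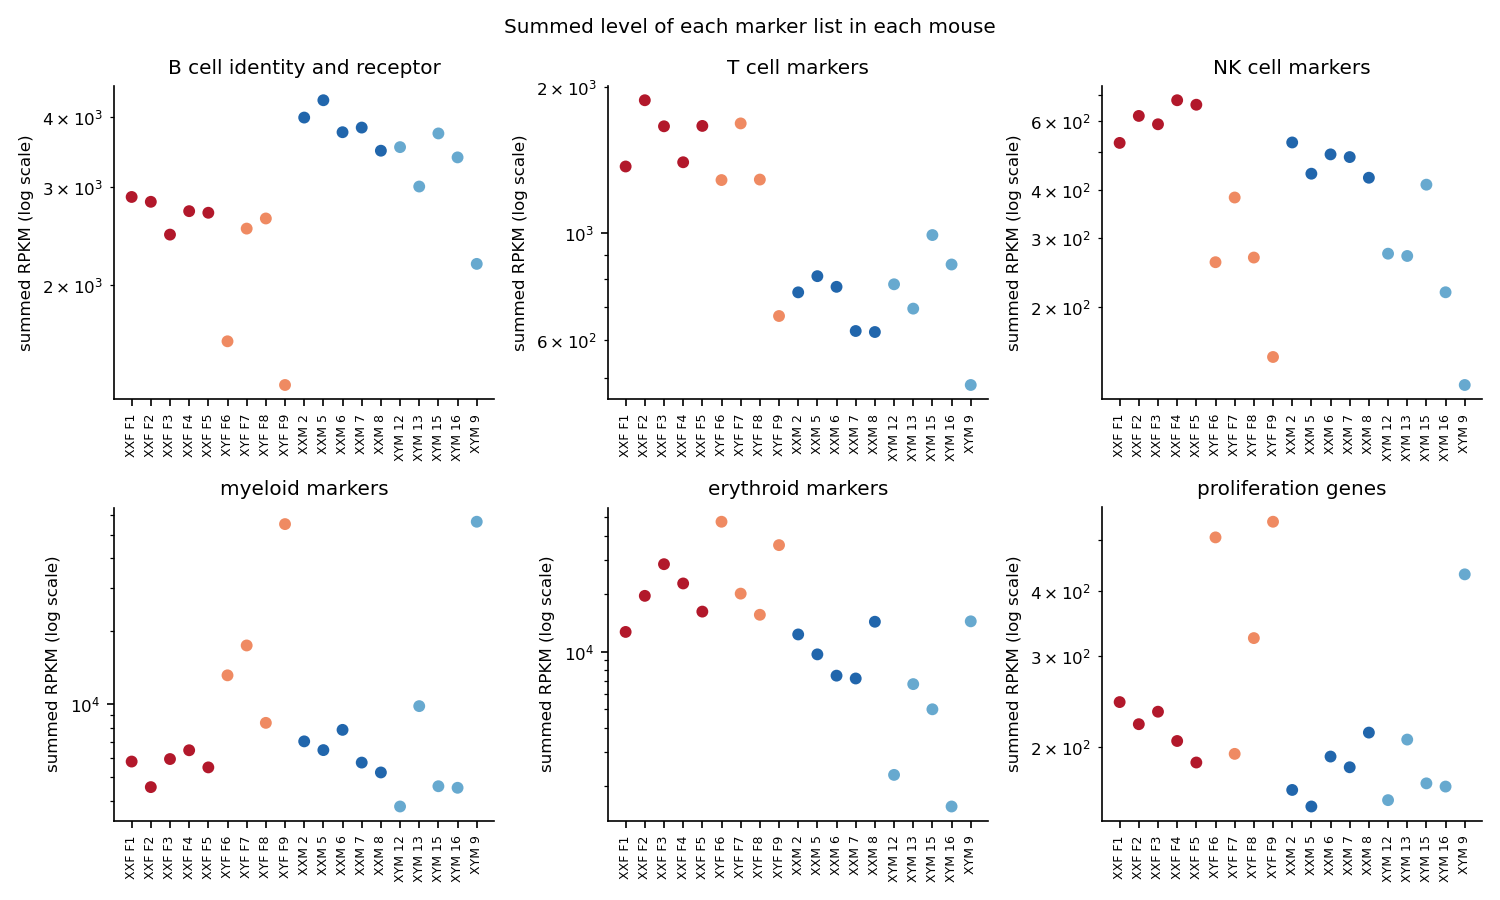
Summed RPKM of marker lists in each mouse by group on a log axis, 1 point a mouse. The lists shown are the 9 B cell genes and the T cell, NK cell, myeloid, erythroid and proliferation lists. The sum of the 9 B cell genes is lowest in XYF F9 (1323 RPKM) and XYF F6 (1585 RPKM), whose erythroid sums are the highest of all mice.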

How the data were processed

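Per the submitters' processing notes, the authors used Subread for alignment to mm10 and featureCounts for counting. The deposited values are log2 of RPKM plus 1, with 0.0001 added to every value, so that a gene without a read stands at 0.0001. Whole reads were recovered from the steps of the values for all 27179 genes (within 0.05 reads), and serve the library sizes, the read counts and limma-voom. The log2 values were fitted with limma 3.58.1 (R 4.3.3) on 4 group means over 19 mice, with a trend in the spread. P values were adjusted by Benjamini and Hochberg over the 14186 genes with 0.5 RPKM or more in at least 4 mice, and 7 comparisons were made. Python 3.11.15 (numpy 2.4.6, scipy 1.17.1, pandas 2.3.3, matplotlib 3.10.9) was used, and the code was tested on simulated data.

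The 9 genes, the 14 other lists and the tests were chosen with earlier results of these data known. Of the other lists, genes called between 2 groups, the most abundant gene and up to 4 with the smallest adjusted p are named, as are the 10 highest and 5 lowest correlations with the mean of the centred values of the 9 genes. Sums over a list are of RPKM. A further 3 genes planned for the other lists are not reported here, and their lists were counted and summed without them. The alternatives tried were a filter at an RPKM of 1 or none, pseudocounts of 0.5 and 0.1, median ratio rescaling, quantile normalization, rescaling without 261 immunoglobulin and 8 haemoglobin genes, fits of the compared groups alone, no trend, array weights, limma-voom, an adjusted p under 0.05, no fold threshold, each mouse left out, and pairs of mice left out. Leaving out XYF F6 and F9 together was chosen after seeing the data, as the mice with the largest haemoglobin share.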

Additional observations from a re-analysis of the deposited data

Results flagged for a closer look

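In each group, the highest and the lowest mouse were compared with the rest for the levels of the 9 B cell genes, the summed RPKM of each list, the reads of the library and the immunoglobulin and haemoglobin shares, 108 groups of values in all. A mouse lay far from the others of its group in 5 of them, about as many as chance alone gives at 1 in 20. None of the 5 was among the 36 groups of values of the 9 genes.

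In XXM 2 the B lineage transcription factors summed to 1057 RPKM, below the 1295 to 1359 RPKM of the other XXM mice. In XXM 2 the other surface genes of mature B cells summed to 1726 RPKM, below the 2014 to 2067 RPKM of the other XXM mice. In XYM 9 the myeloid markers summed to 56525 RPKM, above the 3787 to 9820 RPKM of the other XYM mice. In XYM 9 the proliferation genes summed to 430.3 RPKM, above the 158 to 207 RPKM of the other XYM mice. In XXF F5 the pancreas acinar markers summed to 3.851 RPKM, above the 0.379 to 0.894 RPKM of the other XXF mice.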

How the results depend on the processing

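Called genes are counted over all tested genes, and the interaction is the XX minus XY effect in females minus that in males. The cause of the changes below was not tested, except where a threshold, fewer genes or fewer mice are the change itself. A fit of the compared groups alone gives no value for averages and the interaction. Counting strand and multiple-match settings could not be varied. Rescaling without immunoglobulin and haemoglobin genes moved the median of all genes from 0.0167 to 0.167 for XYM minus XYF, to 0.116 for males minus females over both and to 0.128 for the interaction, and the share of called genes that are higher in XYM than in XYF from 48.4% to 76.0%.

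With a pseudocount of 0.1, called genes were 413 for XX minus XY over both gonadal sexes (main value 244), 1700 for males minus females over both (1039) and 6 for the interaction (12). With no filter, they were 211 for XXM minus XYM (420) and 6 for the interaction. With quantile normalization, Ms4a1 turned to -0.00659 for XXM minus XYM and Cd72 to 0.0801 for the interaction. With rescaling without immunoglobulin and haemoglobin genes, Ms4a1 turned to -0.0216 and Bank1 to -0.0056 for XXM minus XYM and Cd72 to 0.0813 for the interaction, and called genes were 217 for XXM minus XYM and 0 for the interaction. With the compared groups alone, 0 of the 9 genes were called for XXF minus XYF (1), and called genes were 88 for XXF minus XYF (196) and 121 for XXM minus XYM. With array weights, 2 of the 9 were called for males minus females over both (6) and 1 for the interaction (0), Cd79b turned to -0.0144 for the interaction, and called genes were 1027 for XXM minus XYM and 1910 for the interaction. With limma-voom, called genes were 391 for XX minus XY over both, 1714 for males minus females over both and 4 for the interaction. At an adjusted p under 0.05, 0 of the 9 were called for XXF minus XYF and 0 for XXM minus XYM, and called genes were 103, 85 and, for the interaction, 0. With no fold threshold, 4 of the 9 were called for XX minus XY over both (0), and called genes were 345 for XXF minus XYF, 1115 for XXM minus XYM, 983 for XX minus XY over both, 1348 for XXM minus XXF (598), 5661 for XYM minus XYF (2236) and 5468 for males minus females over both.

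Without XYF F9 and XYM 9 together, Pax5 turned to -0.0249 for XXF minus XYF, Ms4a1 to -0.0636 for XXM minus XYM and Cd79b to -0.0217 for the interaction. Then 0 of the 9 were called for XXF minus XYF and 3 for males minus females over both, and called genes were 127 for XXF minus XYF, 876 for XXM minus XYM and 782 for the interaction. Without XYF F6 and F9 together, Pax5 turned to -0.20, Ebf1 to -0.00106 and Cd22 to -0.13 for XXF minus XYF, Pax5 to -0.10 for XYM minus XYF, and Cd79a to -0.16, Cd79b to -0.35, Ebf1 to -0.22 and Bank1 to -0.0854 for the interaction. Then 0 of the 9 were called for XXF minus XYF, 0 for XYM minus XYF (7) and 2 for males minus females over both, and called genes were 21 for XXF minus XYF, 128 for XX minus XY over both, 1156 for XYM minus XYF and 0 for the interaction.

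Leaving out each mouse, the number called of the 9 ran from 0 to 4 for XXF minus XYF, 0 to 2 for XXM minus XYM, 0 to 3 for XX minus XY over both, 2 to 3 for XXM minus XXF, 5 to 8 for XYM minus XYF, 2 to 9 for males minus females over both and 0 to 0 for the interaction. Called genes ran from 56 to 850, 51 to 1213, 148 to 518, 499 to 627, 1395 to 2958, 837 to 1253 and 0 to 1694 in the same order. The differences that turned sign were all small ones that were not called. Cd72 ran from -0.180 to 0.127 for XXF minus XYF (above 0 without XYF F8), from -0.123 to 0.0585 for XXM minus XYM (above 0 without XXM 2, 7 or 8 or XYM 13, 15 or 16), from -0.0965 to 0.0579 for XX minus XY over both (above 0 without XYF F8) and from -0.168 to 0.138 for the interaction (above 0 without XYF F8 or XYM 9). Pax5 ran from -0.0249 (without XYF F9) to 0.381 for XXF minus XYF, and Ms4a1 from -0.0636 (without XYM 9) to 0.203 for XXM minus XYM. Cd79b ran from -0.157 to 0.286 for the interaction (under 0 without XYF F9 or XYM 15).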
